A study of Homo sapiens with 34 samples.

Results

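The 8 genes described here are POU5F1, NANOG, SOX2, PRDM14, DPPA4, LIN28A, ZFP42 and L1TD1, markers and regulators of the pluripotent state, taken by symbol from the 37947 genes of 34 RNA sequencing libraries. They were followed through 17 conditions of wild-type ESI017, a long-established line of human embryonic stem cells, with 2 libraries per condition. The undifferentiated control was grown in mTeSR PLUS and is labelled 48 h. In the other 16 conditions, cells were steered for 24 h toward 4 positions of the primitive streak (PS) in E6 medium, and a part of each was carried on in 1 of 3 day 2 media to 48 h. On day 1, DE(a) (definitive endoderm, first day) contained activin at 100 ng/ml with 2 µM of CHIR, the GSK3 inhibitor that activates Wnt signalling. APS (anterior PS) contained 30 ng/ml of activin, 20 ng/ml of bFGF and CHIR at 4 µM. MPS (mid PS) combined CHIR at 6 µM with 40 ng/ml of BMP4, 20 ng/ml of bFGF and 30 ng/ml of activin, and PPS (posterior PS) was the same mixture lacking activin. On day 2, DE(b) combined activin at 100 ng/ml with 250 nM of the BMP inhibitor LDN. PM (paraxial mesoderm) combined 1 µM of the activin and Nodal receptor inhibitor A8301 with 250 nM LDN and 20 ng/ml of bFGF in the labels and the methods, while other passages of the study describe this medium with CHIR, so its Wnt activation is uncertain here. LM (lateral mesoderm) combined 1 µM of A8301 with 30 ng/ml of BMP4 and 4 µM of the Wnt secretion inhibitor IWP2. Conditions are written as day 1-day 2, so that MPS-LM is MPS followed by LM.

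Pluripotent cells are held in an undifferentiated state by a small network of transcription factors, among which OCT4 (encoded by POU5F1), SOX2 and NANOG bind together at many regulatory elements, often at a POU site next to a SOX site. In human cells of the primed type, NANOG is sustained by activin and Nodal signalling through SMAD2/3, and differentiation signals such as BMP4 and Wnt lead to its loss. Exit from pluripotency is the stepwise shutdown of this network as a lineage programme starts.

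NANOG and SOX2 are the members whose upstream sequence held a match to the core of these sites, and the bases before their start sites are printed for that reason (RefSeq, GRCh38.p14). Their core letters, TTTGCAT of the POU site and ACAATG of the SOX site, were searched on both strands in the 250 bases upstream of each start. The NANOG window lies at chr12:7789152-7789401 on the plus strand, inside the span of the NANOG gene in GENCODE v44 but in none of its exons. The SOX2 window, chr3:181711675-181711924 on the plus strand, lies inside the gene SOX2-OT and overlaps an exon of an unnamed antisense gene. Matches are in capitals.
NANOG: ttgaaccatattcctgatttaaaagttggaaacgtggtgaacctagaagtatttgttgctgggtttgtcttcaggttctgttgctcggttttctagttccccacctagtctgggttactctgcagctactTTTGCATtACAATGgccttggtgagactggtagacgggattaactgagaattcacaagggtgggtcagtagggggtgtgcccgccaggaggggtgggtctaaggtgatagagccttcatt
SOX2: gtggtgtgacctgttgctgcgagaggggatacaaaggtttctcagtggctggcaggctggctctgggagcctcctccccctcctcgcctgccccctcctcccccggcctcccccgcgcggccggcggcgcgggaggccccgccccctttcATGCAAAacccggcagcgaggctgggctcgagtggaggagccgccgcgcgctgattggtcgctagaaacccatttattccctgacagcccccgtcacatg
In NANOG the POU core stood at -120 to -114 and the SOX core at -112 to -107, 1 base apart, on the same strand. In SOX2 the POU core was found on the minus strand at -100 to -94, so the capitals show its reverse complement. Over the upstream windows of the same length of all 35116 promoters in that source, 3.94% held TTTGCAT and 9.29% held ACAATG, on either strand. The arrangement with 1 base between them occurred in 2 of these, NANOG and NRARP. The windows of DPPA4, ZFP42 and L1TD1 held neither word, which says only that these letters are not there, and the promoters of POU5F1, PRDM14 and LIN28A are not shown.

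Levels are given as CPM, each count divided by its library's total and brought to the usual common total, and are not scaled by gene length, so they are compared between conditions and not between genes. Totals ran from 15522780 to 23439799 counts per library with a median of 19341117. Sums of streak markers (TBXT, MIXL1, EOMES) were 1.58 to 1.86 CPM in the control and 1574 to 2955 CPM at 24 h. Sums of paraxial markers (TBX6, MSGN1, HES7) were 256 to 416 CPM in PM libraries and at most 67.5 CPM in the other 48 h libraries. Sums of lateral markers (HAND1, GATA4, FOXF1) were 542 to 2393 CPM in LM and at most 241 CPM in the other 48 h libraries, and 55.2 to 372 CPM at 24 h. Sums of endoderm markers (SOX17, FOXA2, CXCR4) overlapped between DE(b), with 124 to 722 CPM, and PM, with 234 to 335 CPM. CXCR4 alone held 156 to 335 CPM in PM libraries and 9.25 to 168 CPM in DE(b). SOX17 did not overlap, with 113 to 553 CPM in DE(b) and 0 to 72.7 CPM in PM. FOXA2 held 2.17 to 125 CPM in DE(b) and 0 to 33 CPM in PM. Conditions were compared by the quasi-likelihood method in edgeR over 17891 genes, and a gene was called at a Benjamini-Hochberg adjusted p under 0.05. Values after ± are the standard error (SE) of a log2 fold change.

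Every member was highest in the control, and each lay below both control libraries in all 32 treated libraries, which held for 7.75% of all genes tested. Relative to the control, the members were called lower in 26 of 32 tests at 24 h (8 genes in 4 conditions), in 31 of 32 after DE(b), in 32 of 32 after PM and in 32 of 32 after LM, and higher in 0 tests (0 also at an unadjusted p under 0.05, and 0 by DESeq2). Over all genes tested, the share called lower than control was 11.6% at 24 h, 17.1% after DE(b), 17% after PM and 19% after LM. The share called higher was 14.2%, 19.4%, 18.8% and 21.2% in the same order. These comparisons share the 2 control libraries. In bulk RNA, fewer cells of a type and less RNA per cell cannot be told apart, so a partial level may stand for all cells at a lower level or for some cells at the old one.

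**Figure D1:**
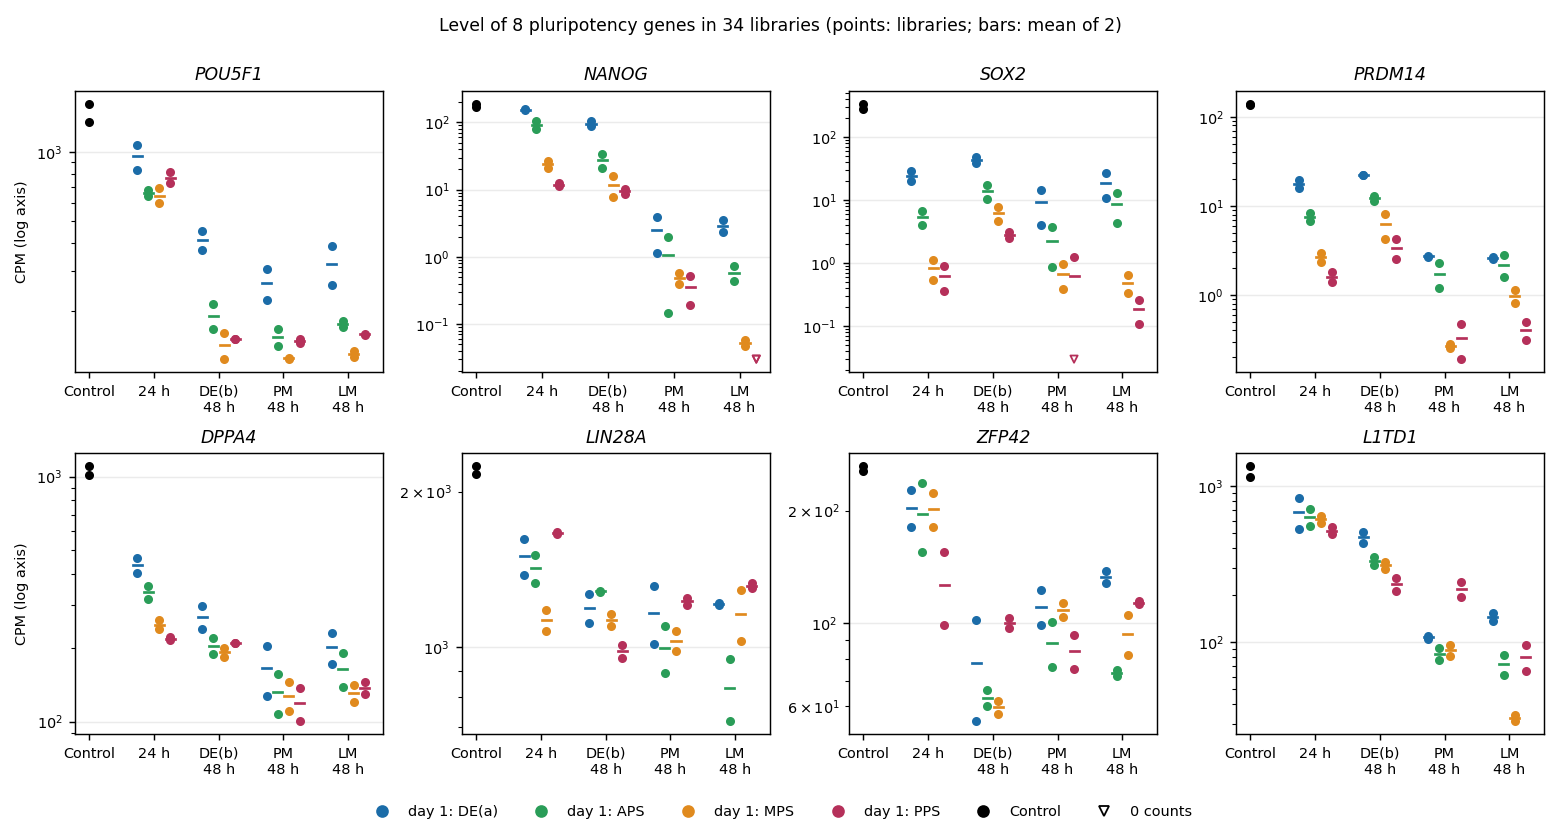
CPM of the 8 genes in each of the 34 libraries, 1 panel per gene, on a log axis, with the conditions along the horizontal axis in the order control, 24 h, DE(b), PM, LM; points are the replicates and open triangles mark libraries with 0 counts. All treated points lie below the control points, and SOX2, PRDM14 and NANOG span the widest ranges.

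POU5F1, which encodes OCT4, stands at the centre of the network. Its control libraries held 1625 and 1348 CPM. At 24 h the replicates held 1077 and 837 CPM in DE(a), 683 and 644 in APS, 595 and 692 in MPS and 727 and 815 in PPS. The mean was thus 64.4% of control in DE(a) and 43.3% to 51.9% in the other 3. All 4 differences were called, with log2 fold changes of -0.54 ± 0.18 (adjusted p = 0.036) in DE(a) and -1.11 ± 0.18 (adjusted p = 4.81e-05) in MPS. The DE(a) call was lost without either control library or without DE(a)-24h replicate 2 (log2 fold change -0.65 to -0.39, adjusted p 0.059 to 0.291). At 48 h POU5F1 lay between 123 and 449 CPM with a median of 164 in 8 libraries of DE(b), between 124 and 307 CPM with a median of 148 in 8 libraries of PM and between 126 and 385 CPM with a median of 165 in 8 libraries of LM. The highest of these were the libraries that began as DE(a) in each medium, with 449 and 369.6 CPM in DE(b), 307 and 224 in PM and 385 and 261 in LM, all above the libraries of the other 3 day 1 conditions in the same medium.

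The counts of POU5F1 were deposited under 4 identifiers, which were summed here. Only ENSG00000204531 (chr6:31164337-31180731, minus strand, GENCODE v44, GRCh38) is in GENCODE v44, and it held 6.81% to 25.6% of the POU5F1 counts of a library. ENSG00000229094 held 50.9% to 65.1%, ENSG00000206454 held 0% to 34.1% and ENSG00000230336 held 0% to 30.9%. The last 2 changed places in both PPS-DE(b) libraries and in PPS-LM replicate 1, where the first of them was low and the second high. With ENSG00000204531 alone, POU5F1 in DE(a)-24h was no longer called lower than control (adjusted p = 0.33). That identifier held 121 and 345 CPM in the control libraries. Nor was the difference called with ENSG00000229094 alone (log2 fold change -0.54, adjusted p = 0.057), or with ENSG00000206454 or ENSG00000230336 (adjusted p = 0.865 and 0.169). The 7 listed copies of POU5F1 together held at most 0.355% of its count at 24 h or in the control.

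**Figure D2:**
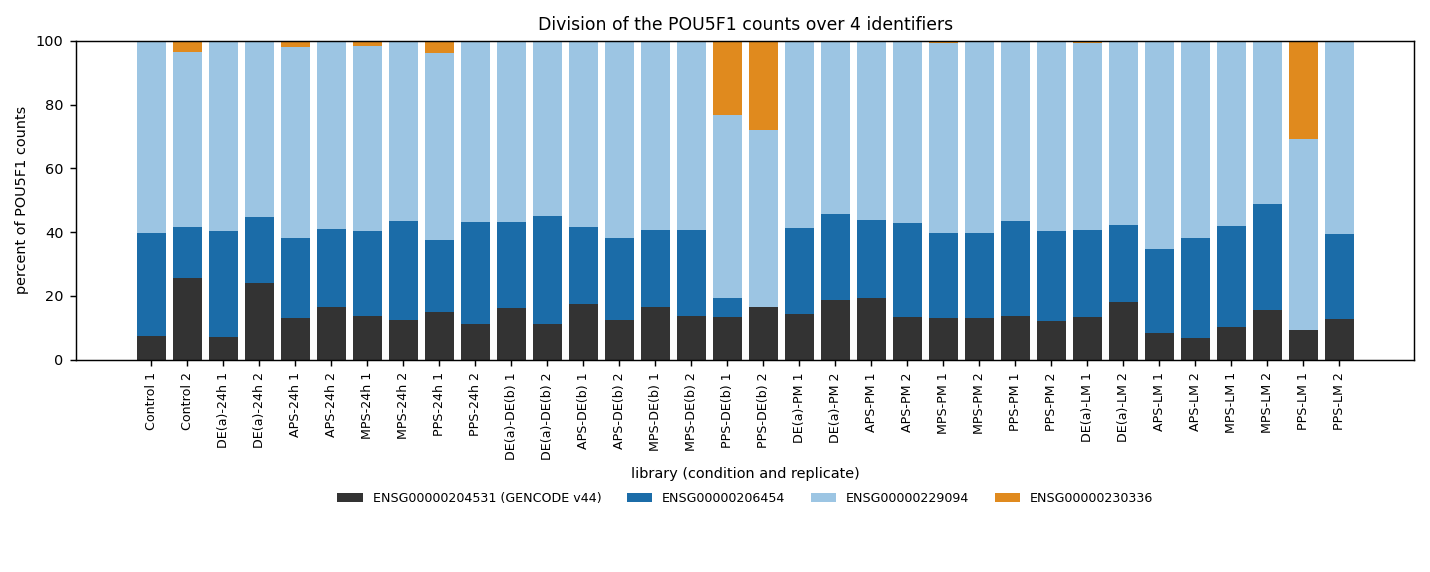
Share of the POU5F1 counts held by each of its 4 identifiers in percent (vertical axis, stacked bars from 0), in each of the 34 libraries along the horizontal axis. ENSG00000229094 holds at least 50.9% everywhere, and ENSG00000206454 and ENSG00000230336 change places in PPS-DE(b) and in PPS-LM replicate 1.

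NANOG (ENSG00000111704, chr12:7787794-7799146, plus strand, GENCODE v44), the homeodomain factor that stabilizes the undifferentiated state, was graded along the streak. The control libraries held 171 and 188 CPM. At 24 h its replicates held 156 and 154 CPM in DE(a), 103 and 81.1 in APS, 26.9 and 21.1 in MPS and 12.4 and 11.4 in PPS, with no overlap between neighbouring conditions. These means were 86.3%, 51.2%, 13.4% and 6.61% of control. NANOG was called lower than control in MPS (-2.81 ± 0.48, adjusted p = 1.06e-04) and PPS (-3.90 ± 0.51, adjusted p = 4.73e-06). The test did not call it in DE(a) (log2 fold change -0.12 ± 0.44, 95% interval -1.04 to 0.81, adjusted p = 0.922) or APS (-0.89 ± 0.45, interval -1.82 to 0.05, adjusted p = 0.17).

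After DE(b), NANOG held 104 and 87.1 CPM in cells from DE(a), 33.4 and 21.1 from APS, 16 and 7.68 from MPS and 10.2 and 8.67 from PPS. DE(a)-DE(b) was the only 48 h condition not called lower than control, at 53% of it (log2 fold change -0.89 ± 0.45, adjusted p = 0.133). In PM the gene lay between 0.144 and 3.92 CPM with a median of 0.543, and in LM between 0 and 3.51 CPM with a median of 0.244. MPS-LM held 1 count in each library and PPS-LM 0 in both, so that against a floor of 3 counts per library NANOG was at least 1135-fold lower than control in MPS-LM and at least 1119-fold lower in PPS-LM. Listed copies of NANOG held at most 2.54% of its count in the control and at most 9.23% at 24 h, and reads shared with them could not be assigned here. Their share at 48 h, where NANOG was low in PM and LM, is not given here.

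SOX2 (ENSG00000181449, chr3:181711925-181714436, plus strand), the SOX partner of OCT4 that is also a neural factor, was at the lowest percent of control among the 8 in each of the 4 conditions of 24 h. From 331 and 278 CPM in the control, it came to 28.3 and 19.9 CPM in DE(a), 6.59 and 3.99 in APS, 1.13 and 0.54 in MPS and 0.889 and 0.361 in PPS. That is 7.91%, 1.74%, 0.274% and 0.205% of control, and all 4 were called, from -3.56 ± 0.69 (adjusted p = 5.63e-04) in DE(a) to -8.85 ± 0.94 (adjusted p = 2.08e-07) in PPS. DE(b) libraries held 47.3 and 37.9 CPM after DE(a), 16.9 and 10.2 after APS, 7.75 and 4.58 after MPS and 3.12 and 2.49 after PPS. In PM libraries the gene lay between 0 and 14.5 CPM with a median of 1.1, and in LM between 0.109 and 26.5 CPM with a median of 2.51. Replicate 1 held more SOX2 than replicate 2 in 17 of 17 conditions, against 15 of 17 for NANOG and ZFP42, and 5 of 17 for L1TD1. Neural ectoderm markers (PAX6, SOX1, SIX3, LHX2, RAX, NEUROG2) summed to 1.39 to 1.6 CPM in the control, at most 4.51 CPM at 24 h and 1.01 to 13.4 CPM in DE(b). SOX1 and NEUROG2 were at or under 3 counts throughout DE(b). SIX3 held 6.25 and 10.7 CPM in DE(a)-DE(b), where SOX2 was highest among the DE(b) conditions, and 0.181 and 0.16 CPM in the control, and RAX held 1.23 and 2.44 and 0.452 and 0.266 CPM. PAX6 held 0.41 and 0.175 CPM in DE(a)-DE(b) and 0.262 and 0.372 CPM in the control, so it did not rise. LHX2 was at the floor in DE(a)-DE(b), with 3 and 1 counts (0.148 and 0.0581 CPM). In the control it held 5 and 4 counts (0.226 and 0.213 CPM), so no direction is read for it. The part of these markers in the SOX2 values was not tested.

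PRDM14 (ENSG00000147596, chr8:70051651-70071693, minus strand), a chromatin regulator that supports POU5F1 expression in human stem cells and acts in germ cells, followed the order of SOX2 at 24 h. It held 139.5 and 136 CPM in the control, 19.3 and 15.9 in DE(a), 8.38 and 6.73 in APS, 2.99 and 2.36 in MPS and 1.38 and 1.81 in PPS, which is 12.8% down to 1.16% of control. The 4 log2 fold changes ran from -2.88 ± 0.34 (adjusted p = 1.35e-06) to -6.41 ± 0.41 (adjusted p = 1.14e-10). After DE(b) it held 22.4 and 22 CPM from DE(a), 13.1 and 11.3 from APS, 8.15 and 4.28 from MPS and 2.51 and 4.29 from PPS. In every PM and LM library it was under 3 CPM, with a highest value of 2.75 CPM in PM and 2.79 CPM in LM.

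DPPA4 (ENSG00000121570, chr3:109326144-109337546, minus strand), a chromatin protein of pluripotent cells, fell from 1013 and 1104 CPM to 404 and 465 in DE(a), 356 and 318 in APS, 238 and 260.0 in MPS and 222 and 214 in PPS, with log2 fold changes of -1.19 to -2.26 that were all called. L1TD1 (ENSG00000240563, chr1:62194849-62212328, plus strand), an RNA-binding protein derived from a LINE-1 element, held 1144 and 1348 CPM in the control and 41.7% to 55.3% of that at 24 h, called in 4 of 4 conditions. LIN28A (ENSG00000131914, chr1:26410817-26429728, plus strand), which blocks maturation of let-7 microRNAs, held 2239.7 and 2163 CPM in the control and 51.2% to 75.6% of it at 24 h. It was called in DE(a), APS and MPS and not in PPS (-0.38 ± 0.16, adjusted p = 0.0781). ZFP42 (ENSG00000179059, chr4:187995771-188005046, plus strand), the zinc finger protein REX1, held 263 and 255 CPM in the control and was called in 1 of 4 conditions at 24 h, PPS, at 48.9% of control (-1.01 ± 0.25, adjusted p = 0.00346). In DE(a), APS and MPS its log2 fold changes were -0.25 ± 0.24, -0.32 ± 0.24 and -0.26 ± 0.24 (adjusted p = 0.571, 0.39 and 0.481). Over the 12 conditions of 48 h, LIN28A held 37.9% to 59.7% of control, ZFP42 23.0% to 51.2%, DPPA4 11.2% to 25.2% and L1TD1 2.61% to 37.8%, all called lower. Of the calls in this group at 24 h, those of LIN28A in DE(a) and APS, L1TD1 in DE(a) and APS and ZFP42 in PPS were lost on leaving out 1 of the libraries compared, with adjusted p between 0.0514 and 0.274.

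**Figure D3:**
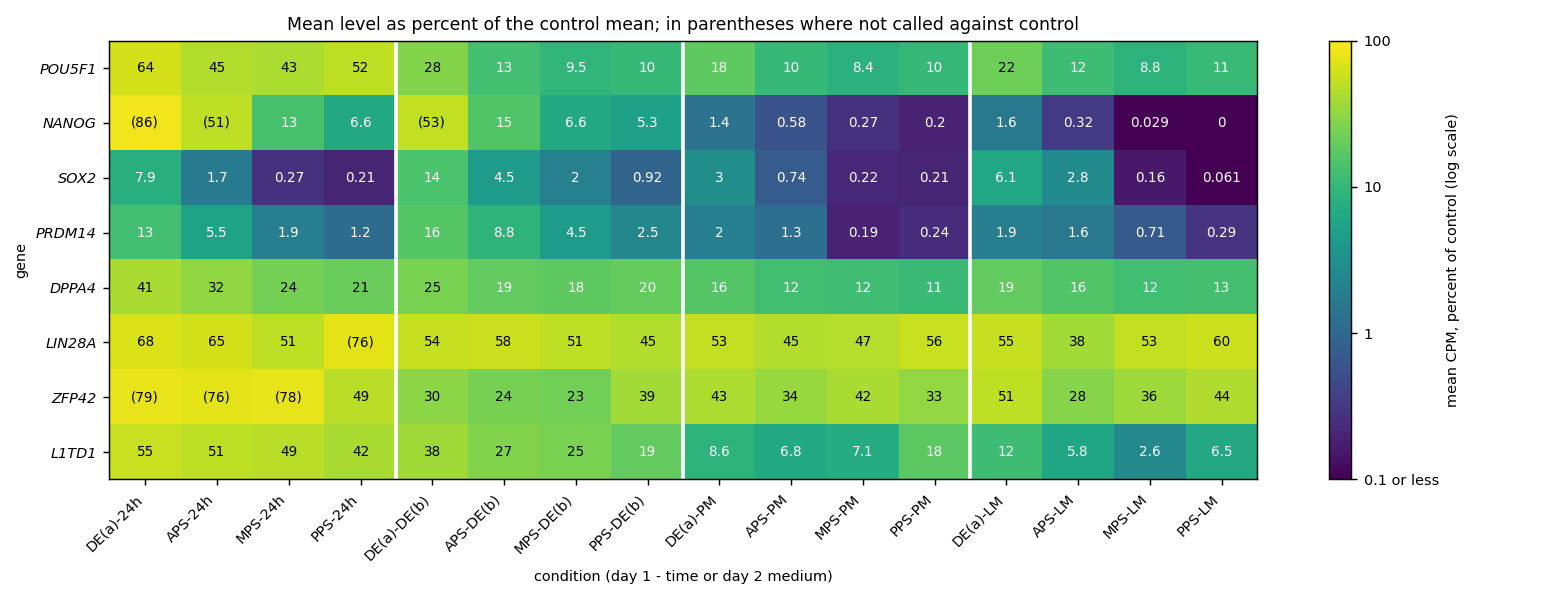
Mean level of each gene (rows) in each treated condition (columns) as percent of the control mean, on a log colour scale; values in parentheses belong to differences from control that were not called. NANOG stands at 86.3% in DE(a)-24h while SOX2 is at 7.91% there, and LIN28A and ZFP42 keep the largest shares at 48 h in PM and LM.

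The 4 day 1 conditions differ in activin, CHIR, bFGF and BMP4, and the question at 24 h was whether the members tell the PS positions apart. Across DE(a), APS, MPS and PPS, 4 of 8 members differed in an F-test, against 18.8% of all genes tested. They were PRDM14 (adjusted p = 4.32e-07), NANOG (adjusted p = 1.81e-05), SOX2 (adjusted p = 3.83e-05) and DPPA4 (adjusted p = 0.0021). In each of these the means were ordered DE(a), APS, MPS, PPS from high to low, and the highest stood over the lowest by 38.6-fold for SOX2, 13.1-fold for NANOG, 11.03-fold for PRDM14 and 1.99-fold for DPPA4. POU5F1 was ordered otherwise, with PPS second, and its range was 1.49-fold. Amnion markers (GATA3, TFAP2A, VTCN1, GABRP, IGFBP3, ISL1) summed to 14.9 to 15.1 CPM in the control and 19.4 to 161 CPM at 24 h. In DE(a), APS, MPS and PPS the mean of GATA3 was 1.72, 1.99, 35 and 54 CPM, and that of TFAP2A was 0.82, 0.908, 7.45 and 55 CPM. That of ISL1 was 2.58, 6.22, 17 and 33.7 CPM, so that these stood higher in MPS and PPS than in DE(a) and APS. The list was not uniform. GABRP, with 4.08, 4.79, 2.91 and 0.666 CPM, and IGFBP3, with 14.4, 16.6, 10.7 and 1.76 CPM, were lowest in PPS. The mean of VTCN1 was at most 0.367 CPM. The part of these markers in the order at 24 h was not tested.

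Between the ends of the series, PPS against DE(a), 5 of 8 members were lower, against 10.2% of all genes. The log2 fold changes were -5.29 ± 0.86 for SOX2, -3.78 ± 0.50 for NANOG, -3.54 ± 0.37 for PRDM14, -1.07 ± 0.21 for DPPA4 and -0.76 ± 0.25 for ZFP42. The ZFP42 call was lost without DE(a)-24h replicate 1 or PPS-24h replicate 2 (adjusted p 0.247 to 0.347), and POU5F1 was not called (-0.38 ± 0.18, adjusted p = 0.134). Of the single steps, MPS against APS, in which BMP4 is added and CHIR raised, had 2 of 8 members lower, against 1.03% of all genes: NANOG (-1.92 ± 0.46, adjusted p = 0.0242) and PRDM14 (-1.47 ± 0.34, adjusted p = 0.017). Without any 1 of the 4 libraries the NANOG call was lost (log2 fold change -2.12 to -1.73, adjusted p 0.0663 to 0.244), and that of PRDM14 was lost without APS-24h replicate 1 or either MPS-24h library (-1.67 to -1.30, adjusted p 0.0796 to 0.212). For APS against DE(a) edgeR called 0 of 8, with 3 at an unadjusted p under 0.05 and 1 called by DESeq2, against 0.123% of all genes called lower. PPS against MPS, which differ in activin alone, likewise gave 0 of 8 by edgeR in either direction, against 3.34% of all genes called lower. The share of all genes called higher in either comparison is not given here. At an unadjusted p under 0.05, PPS against MPS had 4, with NANOG, PRDM14 and ZFP42 lower and LIN28A higher in PPS. DESeq2 called 2 of these, ZFP42 lower and LIN28A higher. In that comparison the log2 fold change of NANOG was -1.09 ± 0.47 (95% interval -2.07 to -0.11) and that of PRDM14 was -0.83 ± 0.37 (-1.60 to -0.06), so that these 2 replicates do not show MPS and PPS to be alike.

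Day 2 was then set against the level left at 24 h in the same day 1 condition. Members were called lower after PM in 26 of 32 tests and after LM in 25 of 32, with 0 higher in either by edgeR, by DESeq2 or at an unadjusted p under 0.05, against 12.1% and 16% of all genes called lower. The share of all genes called higher after PM or LM is not given here, so the 0 cannot be set against it. After DE(b), 15 of 32 tests were lower and 3 higher, against 13.4% and 13.3% of all genes, so the share higher was below that of all genes. POU5F1, NANOG, DPPA4 and L1TD1 lay below both 24 h libraries in both DE(b) libraries of all 4 day 1 conditions, which held for 8.19% of all genes tested. SOX2 and PRDM14 lay above both 24 h libraries in both DE(b) libraries, also in all 4, as did 9.66% of all genes.

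The 3 tests called higher, each of them lost on leaving out 1 library, were SOX2 in MPS-DE(b) (2.79 ± 0.82, adjusted p = 0.0135) and PRDM14 in MPS-DE(b) (1.14 ± 0.34, adjusted p = 0.0159) and PPS-DE(b) (1.13 ± 0.37, adjusted p = 0.0327). For SOX2 the values in cells from DE(a), APS and PPS were 0.75 ± 0.63, 1.31 ± 0.67 and 2.16 ± 0.91, and for PRDM14 those from DE(a) and APS were 0.27 ± 0.32 and 0.64 ± 0.32, none of them called. The SOX2 and PRDM14 calls in MPS-DE(b) were lost without MPS-24h replicate 2 or MPS-DE(b) replicate 1 (log2 fold change 2.36 to 2.38 for SOX2 and 0.60 to 0.98 for PRDM14). The call of PRDM14 in PPS-DE(b) was lost without either PPS-24h library or PPS-DE(b) replicate 2 (0.71 to 1.32). In MPS-DE(b), SOX2 was at 2.02% of control and PRDM14 at 4.5%. Primordial germ cell markers (PRDM1, TFAP2C, NANOS3, DND1, KIT, DAZL, DDX4) summed to 46.8 to 329 CPM in DE(b), 11.9 to 45.8 CPM at 24 h and 48.7 to 50.6 CPM in the control. Of these 7, NANOS3 and DDX4 were at or under 3 counts in every DE(b) library. PRDM1, with 26.5 to 136 CPM, and KIT, with 6.01 to 181 CPM, held most of the DE(b) sum. TFAP2C held 13.0 to 20 CPM there, DAZL at most 0.769 CPM and DND1 at most 0.917 CPM. The control means of DAZL and DND1 were 1.32 and 0.764 CPM. The part of these markers in the SOX2 and PRDM14 values was not tested.

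The day 2 media were compared as means over the 4 day 1 conditions, which asks what activin, BMP4 and their inhibitors leave of the members. DE(b) and PM both hold LDN and differ in activin, A8301, bFGF and possibly CHIR, whose parts cannot be told apart here. In DE(b), 6 of 8 members were higher than in PM and 1 was lower, against 21.5% and 21.6% of all genes. The differences as log2 were 4.87 ± 0.31 for NANOG, 3.47 ± 0.20 for PRDM14, 2.59 ± 0.40 for SOX2, 1.56 ± 0.11 for L1TD1, 0.74 ± 0.10 for DPPA4 and 0.35 ± 0.09 for POU5F1. ZFP42 was lower (-0.34 ± 0.12, adjusted p = 0.029), a call lost without any 1 of 8 of the 16 libraries compared (adjusted p 0.06 to 0.0943), and LIN28A was not called (0.11 ± 0.08, adjusted p = 0.299). By its GENCODE v44 identifier alone, POU5F1 was not called either (adjusted p = 0.18).

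LM and PM both hold A8301 and differ in BMP4, LDN, IWP2, bFGF and possibly CHIR. LM against PM had 2 members lower and 2 higher, against 21% of all genes in each direction. L1TD1 was lower (-0.61 ± 0.11), as was NANOG, whose LM and PM libraries were all under 4 CPM. PRDM14 (0.66 ± 0.23) and DPPA4 (0.27 ± 0.10) were higher in LM. The NANOG call was lost without APS-PM replicate 1 or PPS-PM replicate 1 (adjusted p 0.0672 to 0.089), that of PRDM14 without any 1 of 6 libraries (0.058 to 0.1) and that of DPPA4 without any 1 of 10 (0.0583 to 0.152), of the 16 compared. LM against DE(b) had 5 members lower and 1 higher, against 19.9% and 19.8% of all genes. The lower ones were NANOG, PRDM14 (-2.81 ± 0.19), SOX2 (-2.36 ± 0.43), L1TD1 (-2.18 ± 0.11) and DPPA4 (-0.47 ± 0.10), ZFP42 was higher (0.46 ± 0.12), and POU5F1 was not called (-0.13 ± 0.09, adjusted p = 0.277). The amnion markers listed above summed to 102 to 1156 CPM in LM libraries and to at most 25.1 CPM in DE(b) and PM. In LM libraries GATA3 held 36.2 to 140 CPM, TFAP2A 23.2 to 167 and ISL1 10.8 to 94.8. IGFBP3 alone held 709 and 697 CPM in PPS-LM. GABRP held 31.8 and 51.9 CPM in PPS-LM. Its mean was 3.56 CPM in DE(a)-LM, 0.765 CPM in APS-LM and 0.797 CPM in MPS-LM, against 3.63 CPM in the control. VTCN1 held 5.77 and 9.74 CPM in PPS-LM, and its mean was at most 0.263 CPM in the other LM conditions. The part of these markers in the differences was not tested.

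**Figure D4:**
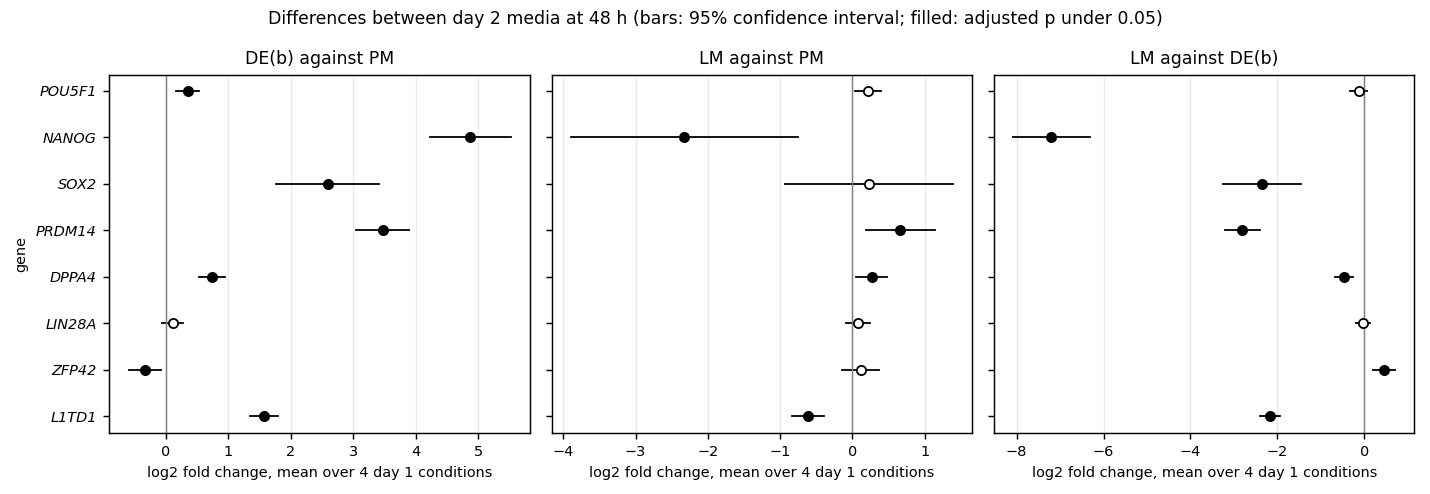
Log2 fold change of each gene between the day 2 media, averaged over the 4 day 1 conditions (horizontal axis, points with 95% intervals), for DE(b) against PM, LM against PM and LM against DE(b); filled points were called. NANOG, PRDM14, SOX2, L1TD1 and DPPA4 are higher in DE(b) than in PM and in LM, and LIN28A lies between -0.03 and 0.11 in all 3.

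Whether the day 1 condition could still be read at 48 h was tested within each medium. Members differed across day 1 conditions in 5 of 8 cases in DE(b), 5 of 8 in PM and 6 of 8 in LM, against 16.6%, 7.47% and 19.6% of all genes. POU5F1, NANOG, SOX2, PRDM14 and L1TD1 were called in all 3 media, and LIN28A in LM as well. The means of NANOG and SOX2 stood in the order DE(a), APS, MPS, PPS from high to low in each medium. So did those of PRDM14 in DE(b) and LM, while in PM its lowest mean was in MPS-PM. The last step was not resolved everywhere. In LM, NANOG was at the floor in both MPS-LM and PPS-LM, which gives no order between them. In PM the MPS and PPS libraries overlapped for NANOG and SOX2, with SOX2 at 0.949 and 0.39 CPM in MPS-PM and 1.26 and 0 CPM in PPS-PM. In DE(b) the highest mean stood over the lowest by 15.2-fold for SOX2, 10.1-fold for NANOG, 6.53-fold for PRDM14 and 2.88-fold for POU5F1. In PM the values rest on few counts, with NANOG at 3.92 and 1.13 CPM in DE(a)-PM and 0.519 and 0.19 CPM in PPS-PM. Without DE(a)-PM replicate 1 the PM calls of NANOG, POU5F1 and SOX2 were lost (adjusted p = 0.645, 0.0976 and 0.221), and fitted on the PM libraries alone only L1TD1 was called. The NANOG call in PM was also lost without either MPS-PM or either PPS-PM library (adjusted p 0.0677 to 0.153), that of LIN28A in LM without APS-LM replicate 1 or PPS-LM replicate 2 (0.307 and 0.0515), and that of L1TD1 in DE(b) without DE(a)-DE(b) replicate 2 or PPS-DE(b) replicate 1 (0.121 and 0.112).

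An interaction of day 1 condition and day 2 medium over the 12 conditions of 48 h was called by edgeR for 1 of 8 members, L1TD1 (adjusted p = 5.06e-05), against 13.1% of all genes, so the members' share was not above that of all genes. At 24 h its levels overlapped, with 534 and 844 CPM in DE(a) and 546 and 493 CPM in PPS. In PM it then held 110.3 and 105 CPM in cells from DE(a), 76.4 and 92.3 from APS, 81.5 and 95.6 from MPS and 195 and 242 from PPS, so that PPS-PM stood above the other 6 libraries. In LM the order was different, with 153 and 136 CPM from DE(a), 83.3 and 61.7 from APS, 34.1 and 31.1 from MPS and 65.3 and 96.5 from PPS, and the MPS-LM libraries were the lowest of all 34. In DE(b) it held 436 and 508, 315 and 351, 297 and 327 and 214 and 258 CPM in the same order of day 1 conditions. For the other 7 members no interaction was called by edgeR, and DESeq2 called 2 of them, LIN28A and NANOG.

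Beyond the 8 members, 30 other pluripotency-associated genes were tested, among them signalling genes of the activin and FGF pathways. At 24 h, 15 of 30 were lower than control in DE(a), 16 in APS, 23 in MPS and 22 in PPS, and 4, 1, 2 and 2 were higher, where over the 4 conditions 11.6% of all genes were lower and 14.2% higher. Their median log2 fold changes were -0.99, -1.17, -2.04 and -2.04, where the medians of all genes lay between 0.00 and 0.03. After DE(b), 18 to 20 were lower and 4 or 5 higher depending on the day 1 condition, after PM 25 to 28 lower and 0 higher, and after LM 26 to 29 lower and 0 or 1 higher. All genes tested gave 17.1%, 17% and 19% lower and 19.4%, 18.8% and 21.2% higher in these media. Over the 120 tests after PM, 2 were higher at an unadjusted p under 0.05 and 0 by DESeq2. DE(b) against PM gave 17 of 30 higher and 6 lower, with a median of 0.57, against 21.5% and 21.6% of all genes.

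The largest falls at 24 h among those called in at least 3 of 4 conditions were those of FOXD3, HESX1 and USP44. FOXD3, a forkhead factor of stem cells and neural crest, went from 40.7 and 29 CPM in the control to 2.75 and 0.966 in DE(a) and 0 in both MPS libraries. HESX1, a homeobox repressor, went from 12 and 15.5 CPM to under 1 CPM in every 24 h library. USP44, a deubiquitinase of histone H2B, went from 331 and 354 CPM to 38.4 and 41.1 in DE(a) and 4.1 and 4.03 in PPS. NODAL, the ligand that acts through the activin receptors, was the one rise that met the same rule. From 10.3 and 12.1 CPM in the control, it reached 356 and 288 CPM in DE(a), 292 and 240.4 in APS, 117 and 144 in MPS and 24.7 and 45.9 in PPS, the same order of day 1 conditions as that of NANOG. It stood between 114 and 269.9 CPM in DE(b) and under 7 CPM in every PM and LM library.

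Genes of the naive pluripotent state, the earlier state of the embryo that precedes the primed one, were looked up in the same way. Of 13 listed, 11 were tested, and at 24 h 5 of these were higher than control in each day 1 condition (against 14.2% of all genes), while edgeR called 0 lower in DE(a) and APS (1 in each at an unadjusted p under 0.05, and 0 by DESeq2) and 1 in MPS and PPS. No gene was called lower in 3 of 4 conditions. The 5 called higher in 4 of 4 were TBX3, KLF5, FGF4, NR0B1 and SUSD2, and the largest mean changes were those of TBX3 and KLF5, which are also expressed outside pluripotent cells. TBX3, a T-box factor, rose from 1.54 and 0.638 CPM to 11.3 and 9.93 in DE(a) and 514 and 494 in PPS, and stood at 519 and 546 CPM in PPS-LM. KLF5, a zinc finger factor, rose from 2.21 and 2.45 CPM to 23.4 and 33.8 in DE(a) and 94.5 and 94.5 in MPS.

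The order of the 17 condition means separated few neighbours. For POU5F1, NANOG and LIN28A, 9 of 16 neighbouring pairs overlapped in their libraries, and the count was 8 for L1TD1, 10 for PRDM14, 11 for DPPA4 and 12 for SOX2 and ZFP42. The lowest mean was in PPS-LM for NANOG and SOX2, in MPS-PM for POU5F1 and PRDM14, in PPS-PM for DPPA4, in APS-LM for LIN28A, in MPS-DE(b) for ZFP42 and in MPS-LM for L1TD1. Across the 17 conditions the members' log2(CPM + 1) means correlated in pairs from 0.27 (Pearson's r, SOX2 and ZFP42) to 0.91 (SOX2 and PRDM14). These values share libraries and the high control, and are a description.

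Among 12259 genes with at least 10 CPM in some condition, the pattern most like that of POU5F1 over the 17 conditions was held by HLA-DPB2 (ENSG00000226071, Pearson's r = 0.977), SMPDL3B (0.970) and FAM131B (0.967). Outside the members and the listed genes, rows of a symbol were not summed, so each such gene stands for a single identifier. Those most like NANOG were CACNA1B (0.962), ARFGEF3 (0.958) and CALN1 (0.957), and those most like SOX2 were CD83 (0.947), TOX (0.933) and POU3F1 (0.932). With a pseudocount of 0.1 in place of 1, 3, 1 and 2 of these 3 genes were again among the leading 3 for POU5F1, NANOG and SOX2.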

How the data were processed

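Poly(A) RNA of ESI017 cells was sequenced as stranded paired-end libraries. According to the methods, the authors quantified transcripts with Salmon 1.10.2, with sequence and GC bias correction, on GRCh38 and summed them to genes in R 4.4.2. The deposited values are these estimated counts without normalization, in 1 table per replicate number, and the annotation version is not given in the sources used here. Groups come from the sample labels, which call the libraries of a condition biological replicates without naming cultures, so p-values measure the spread between these libraries.

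Rows of a member's symbol were summed. Values were rounded to integers before the quasi-likelihood tests of edgeR 4.0.16 under R 4.3.3 (TMM, filterByExpr by condition, 17891 of 37947 genes, 34 libraries, 1 mean per condition, Benjamini-Hochberg over all genes tested, 17 residual degrees of freedom, common dispersion 0.0609). A group of libraries at or under 3 counts was taken as at the floor, which covers counting error only. Alternatives were RLE, library totals only, no filter, a replicate block, only the libraries compared, DESeq2 1.42.0, a single POU5F1 identifier and each library left out. Fits without a library used a coarser dispersion grid (15 points against 21). All tests were first tried on simulated counts. Members and lists were chosen with earlier results of these data known. Named in full are the 8 members, then from the lists those with the largest mean change at 24 h among genes called in the same direction in at least 3 of 4 conditions, up to 3 falls and 3 rises of the other pluripotency genes and up to 2 and 2 of the naive genes. Likeness is Pearson's r of log2(CPM + 1). Promoters are from RefSeq (GRCh38.p14), positions from GENCODE v44. 5 of the 8 genes had a promoter entry.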

Additional observations from a re-analysis of the deposited data

Results flagged for a closer look

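L1TD1 differed between day 1 conditions in its response to the day 2 medium (interaction over the 12 conditions of 48 h, adjusted p = 5.06e-05 by edgeR). As percent of the control mean, L1TD1 in PM was 17.5% in cells from PPS and 6.77% to 8.62% in cells from the other 3 day 1 conditions, with both PPS-PM libraries above the other 6. In LM it was 11.6% in cells from DE(a) and 2.61% in cells from MPS.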

How the results depend on the processing

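Of the called values and the uncalled values given above, none changed sign under any alternative run. Of 259 called values of single genes, DESeq2, RLE and the replicate block each lost 0, the test without the filter lost 4, library totals lost 6 and the fit of only the libraries compared lost 23. Leaving out 1 library at a time lost 102 of 1340 calls, the lone library of a condition being assumed to vary like the other groups. POU5F1 by its GENCODE v44 identifier lost 4 of 32, of which the test of DE(a)-24h against control and that of DE(b) against PM are given above, and the F-tests across day 1 conditions in DE(b) and PM had adjusted p = 0.065 and 0.149. That identifier and library totals were chosen as alternatives after the data were seen. With 2 replicates and a common dispersion of 0.0609, small differences are not resolved. RLE moved the median of all genes by less than 0.03 (log2) in any contrast, and library totals by up to 0.123 (DE(a)-LM against DE(a)-24h). With TMM library sizes, 14 of 136 mean levels moved by more than 1 SD.

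Counts of members called that moved by more than 1.5 times were as follows. The interaction gave 2 with RLE, 2 with library totals, 4 without the filter and 3 with DESeq2, against 1. Members lower in APS than DE(a) numbered 3 without the filter, 1 in the fit of only the libraries compared and 1 with DESeq2, against 0. PPS against MPS gave 1 higher with library totals, 2 lower without the filter, and 1 lower and 1 higher with DESeq2, against 0. MPS against APS gave 1 lower in the fit of only the libraries compared. LM against PM gave 1 higher with library totals and 0 higher in the fit of only the libraries compared, against 2. Without the filter, 6 tests were higher after DE(b) than at 24 h and 1 was higher after LM than at 24 h. The F-test across day 1 conditions gave 7 of 8 at 24 h with DESeq2 and 1 of 8 in PM in the fit of only the libraries compared. The cause was not tested.

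With 1 library left out, members lower in MPS than APS numbered 0 to 1, in PPS than MPS 0 to 1, tests higher after DE(b) than at 24 h 1 to 3, members lower in DE(b) than PM 0 to 1, lower and higher in LM than PM 1 to 2 and 0 to 3, members differing in PM 2 to 5 (lowest without DE(a)-PM replicate 1), and interactions 1 to 2.

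The labels number the libraries 1 and 2 without saying that a number marks a shared culture. Deviations of same-numbered libraries from their condition means correlated at -0.073 to 0.34 over 136 pairs of conditions (median 0.076), with 44 above 0.1. These correlations leaned to the positive side, and replicate 1 held more SOX2 than replicate 2 in 17 of 17 conditions. Whether a number marks a shared culture or run was not tested, and the main tests hold no block. A shift common to a number therefore enters the spread of those tests. With a replicate block, APS against DE(a) gave 1 lower, PPS against MPS 1 lower and 1 higher, DE(b) against 24 h 5 higher and the interaction 3, and no other count moved by more than 1.5 times. Members differing across day 1 conditions at 24 h numbered 6 of 8 with the block, against 4 of 8.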
